A study of Homo sapiens with 14 samples.

Results

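The adrenomedullin receptor axis was followed here through CALCRL, which encodes calcitonin receptor-like receptor, and 2 genes of its ligands, ADM (adrenomedullin) and ADM2 (adrenomedullin 2, also called intermedin). Members were taken by gene name: CALCRL and ADM, with RAMP1, RAMP2, RAMP3 and ADM2 where listed. Of these 6 genes, 3 were listed in both of the authors' deposited tables, out of 12202 genes listed in at least 1 of them. RAMP1, RAMP2 and RAMP3 were not analysed here.

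CALCRL is a receptor of the secretin family that reaches the cell surface with a receptor activity-modifying protein, and the partner sets which ligand it prefers. With RAMP2 or RAMP3 it responds to adrenomedullin, and with RAMP1 to calcitonin gene-related peptide. In endothelium the receptor couples mainly to the stimulatory G protein, raises cyclic AMP, and is known for its part in vessel development, barrier function and vasodilation. ADM is made by endothelial cells themselves, so ligand and receptor can act in the same cell layer.

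All 14 libraries came from teloHAEC, a telomerase-immortalised endothelial line of human aorta, and no genetic change other than the treatments below is given in the labels. In the siRNA arm, 4 si-CALCRL libraries of cells that received CALCRL siRNA by reverse transfection were compared with 4 si-scrambled libraries from cells given scrambled siRNA, both lysed 24 hours later. In the deletion arm, 3 libraries labelled CALCRL_enhancer_deletion came from cells electroporated with Cas9 and guides flanking an enhancer. They were compared with 3 CRISPR control libraries from cells given Cas9 and a guide against HPRT, and both were collected 2 days later. Both groups of the deletion arm therefore carried a Cas9 cut. The labels describe no clonal selection, so the cells of a deletion library may be a mixture of edited and unedited cells. In such bulk libraries, fewer cells expressing a gene and less RNA per cell cannot be told apart. Libraries were made with a 3' mRNA kit, which reads the end of a transcript. The labels do not say whether replicates were separate cultures, so the p-values may measure technical spread only.

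The authors' deposited tables give for each gene a mean normalised count over the libraries of an arm, a log2 fold change against control, its standard error (SE) and a DESeq2 Wald p-value with Benjamini-Hochberg adjustment. A gene was called when that adjusted p-value was under 0.05. Values of single libraries were not used here. Group means are derived from the mean count and the fold change, and the spread between libraries is known only through the SE. Depth of single libraries is therefore unknown.

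CALCRL (ENSG00000064989) is protein-coding and spans 187343129 to 187448460 of chromosome 2, minus strand, in GENCODE release 29 on GRCh38. The antisense gene AC007319.1, on the plus strand, overlaps it, and the processed pseudogene GAPDHP59 lies within its span. Neither was analysed here, and whether the authors' counting used the strand is not given in the sources used here, so a part of the CALCRL count could come from antisense RNA. ADM (ENSG00000148926) lies on the plus strand of chromosome 11, from 10304680 to 10307397, and ADM2 (ENSG00000128165) on the plus strand of chromosome 22, from 50481556 to 50486440. No other annotated gene overlaps either of them.

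The members were searched for the 7-base word GTAACAA, which earlier work on these data had picked out, after the values had been seen, from the 3' UTRs of genes lower under siRNA. Since the word was chosen from these same values, its presence is given as a description only. CALCRL carries the word at 1 place, in the coding sequence, from base 568 of the coding sequence in transcript CALCRL-202 and starting in codon 190. It lies in exon 10 of 16, at 187363429 to 187363435. No copy was found in the coding sequence or 3' UTR of the ADM and ADM2 transcripts. The 5 genes closest to CALCRL in fold change in both arms were taken among abundant genes, as described below. Of these 5, COX6A1 has no copy and 4 carry the word. The CALCRL site is printed here with the first such site of each of those 4. All are from GENCODE release 29 on GRCh38, 30 bases each on the transcript's strand, with the word in capitals. RAB1A (chr2:65087913-65087942, minus), RAB14 (chr9:121179336-121179365, minus), NAA20 (chr20:20033373-20033402, plus) and CTNNB1 (chr3:41239809-41239838, plus) carry it in the 3' UTR.
CALCRL: tgtaactctgttGTAACAAtcattcacctc
RAB1A: gttgcacactatGTAACAAaacaactgaag
RAB14: tcttcatttgatGTAACAAaatgctattaa
NAA20: aagctgttcattGTAACAAaattcaatcaa
CTNNB1: tttggtcgaggaGTAACAAtacaaatggat
The CALCRL window is chr2:187363418-187363447. The siRNA sequence is not given in the sources used here, and whether the siRNA pairs at this place was not tested.

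The siRNA lowered its target. From the authors' deposited table, the derived mean of CALCRL was 318 normalised counts in the scrambled control and 108 with siRNA against it. The authors' deposited table gives a log2 fold change of -1.56 (SE 0.17, n = 4 against 4, DESeq2 adjusted p-value 1.9e-17), which is 34.0% of control. Of the 11261 genes tested in that arm, 2.42% were called lower. Only 2 genes in the table had a lower log2 fold change, and none of the 4070 genes with a mean count at or above that of CALCRL was among those 2. The deposited SE implied a spread between libraries of the same group of 1.18-fold for CALCRL, so the change exceeded that spread. Against a t distribution with 6 degrees of freedom in place of the normal one, the BH-adjusted p-value was 0.102. That setting left 5 called genes in the arm, against 390 as deposited.

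The receptor transcript was also lower after the enhancer deletion, with a wider error and a call that ended under 4 of 6 alternative settings. Its derived mean was 207 normalised counts with the control guide and 74.8 after deletion. For CALCRL the authors' deposited deletion table gives a log2 fold change of -1.47 (SE 0.43, n = 3 against 3, DESeq2 adjusted p-value 0.00962), or 36.2% of control. Here 8.44% of 11830 genes were called lower. Across this table as many as 937 genes had a lower log2 fold change, 233 of them among the 5682 with a mean count at or above that of CALCRL. The implied spread between libraries was 1.44-fold. Against a t distribution with 4 degrees of freedom the adjusted p-value was 0.357, and with all Wald statistics divided by their robust SD of 1.88 it was 0.975. No gene of this arm was called under either of these settings, against 1874 as deposited. Losing the call there is therefore not particular to CALCRL.

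The arms did not differ in CALCRL beyond their error. The siRNA effect minus the deletion effect was -0.09 on the log2 scale (SE 0.46, normal test on the deposited values, adjusted p-value 0.924 over 10891 genes, of which 13.7% were called for a difference). The 95% interval runs from -0.99 to 0.81, so the remaining share of transcript after siRNA could be between 0.503 and 1.75 times that after deletion. With the GC trend removed the difference was -0.48 (last 500 bases) or -0.44 (whole transcript), with adjusted p-values of 0.541 and 0.575. The SE of the deletion value was 2.56 times that of the siRNA value.

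ADM, the ligand gene, passed the test in neither arm, with log2 fold changes of 0.79 after the deletion and 0.12 under siRNA. For ADM the authors' deposited deletion table gives a log2 fold change of 0.79 (SE 0.33, n = 3 against 3), with a p-value of 0.0178 before and 0.0843 after DESeq2's Benjamini-Hochberg adjustment. The derived means were 167 normalised counts with the control guide and 290 after deletion, a ratio of 1.73 with a 95% interval from 1.10 to 2.73. Given this SE, a change of 1.85-fold would have been called, so the measured value lay just short of the threshold. Called higher were 7.4% of genes in this arm. In 15.3% of the genes in the table the log2 fold change was higher still.

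Under siRNA the derived ADM means were 328 normalised counts in the control and 358 with CALCRL siRNA. ADM was at 0.12 on the log2 scale in the authors' deposited table (SE 0.15, n = 4 against 4, DESeq2 adjusted p-value 0.889), with a 95% interval of the ratio from 0.888 to 1.34. A change of 1.39-fold would have been called, and 1.05% of genes were called higher. The difference between the arms was -0.67 (SE 0.37, 95% interval -1.39 to 0.05, normal test, adjusted p-value 0.213), which does not pass the threshold. A difference between the arms in ADM is therefore not shown.

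ADM2 encodes a peptide that also acts through CALCRL. It was the least abundant member, above 39.8% of genes by mean count in the siRNA table and above 14.4% in the deletion table. Under siRNA its derived means were 94.4 normalised counts in the control and 84.5 with CALCRL siRNA. The authors' deposited table gives -0.16 (SE 0.18, DESeq2 adjusted p-value 0.869). After deletion the derived means were 13.1 and 24.5 normalised counts for control guide and deletion. The authors' deposited table gives 0.90 (SE 0.86, DESeq2 adjusted p-value 0.510), with a 95% interval of the ratio from 0.585 to 5.97. A change below 4.83-fold was not detectable for ADM2 at this precision. The arms differed by -1.06 (SE 0.87, normal test, adjusted p-value 0.440).

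**Figure D1:**
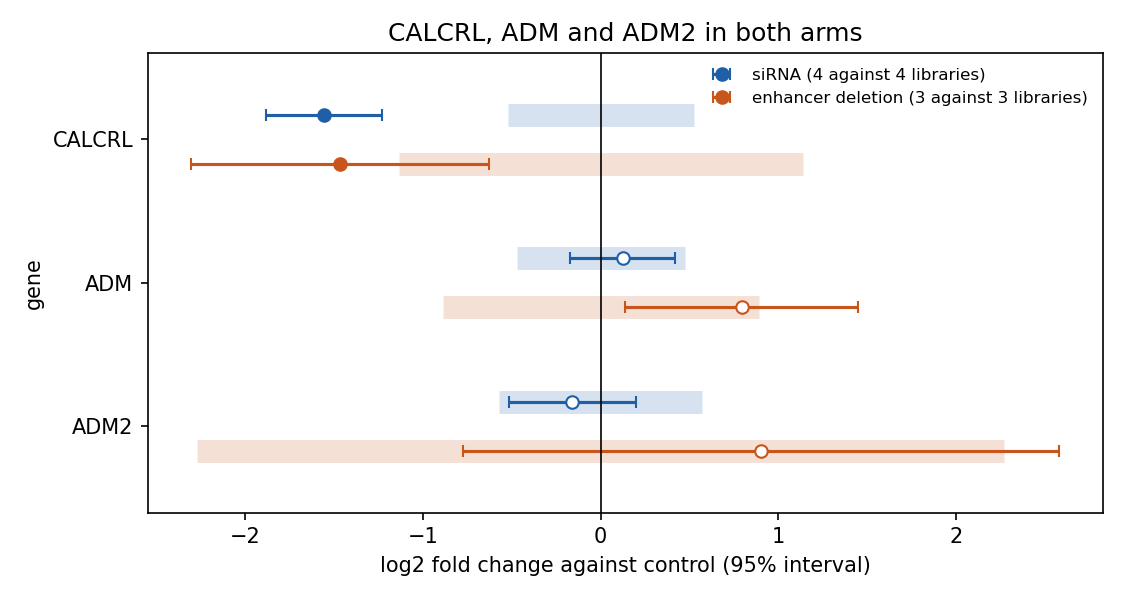
Log2 fold change against control of CALCRL, ADM and ADM2 under siRNA (blue) and enhancer deletion (orange). Points are the authors' deposited values, filled where called; bars are 95% intervals, and a shaded band spans the changes too small to be called at that gene's SE. Both CALCRL points lie outside their bands, at -1.56 and -1.47, and the ADM deletion point, at 0.79, lies inside its band near the edge.

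The distance between ligand and receptor values is given as a description, since most of it is the fall of CALCRL under siRNA. The log2 fold change of ADM minus that of CALCRL was 1.68 under siRNA and 2.26 after deletion, from the authors' deposited tables. For ADM2 minus CALCRL it was 1.40 and 2.37. These sums have no SE of their own, since the 2 genes were measured in the same libraries.

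Base composition moved with the fold changes in the deletion arm, and CALCRL sits at its end. The last 500 bases of its transcript are 24.2% G or C, and only 23 of the 11630 genes with a known value were lower. The value was 41.2% for ADM and 57.2% for ADM2. In the lowest of 10 GC groups, which holds CALCRL, genes had a median of -0.27 on the log2 scale after deletion and -0.03 under siRNA, and in the highest group it was 0.60 and 0.01. With a smooth trend on GC removed, the deletion value of CALCRL became -1.07 (adjusted p-value 0.0753), short of the threshold, or 47.6% of control. Using the GC of the whole transcript it was at -1.11 (adjusted p-value 0.0621). Under siRNA the same step left CALCRL at -1.55 (adjusted p-value 2.53e-17). ADM after deletion was at 0.90 with the trend of the last 500 bases removed (adjusted p-value 0.0552) and at 0.51 with that of the whole transcript removed (adjusted p-value 0.321). ADM2 was at 0.47 and 0.43 after those steps.

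**Figure D2:**
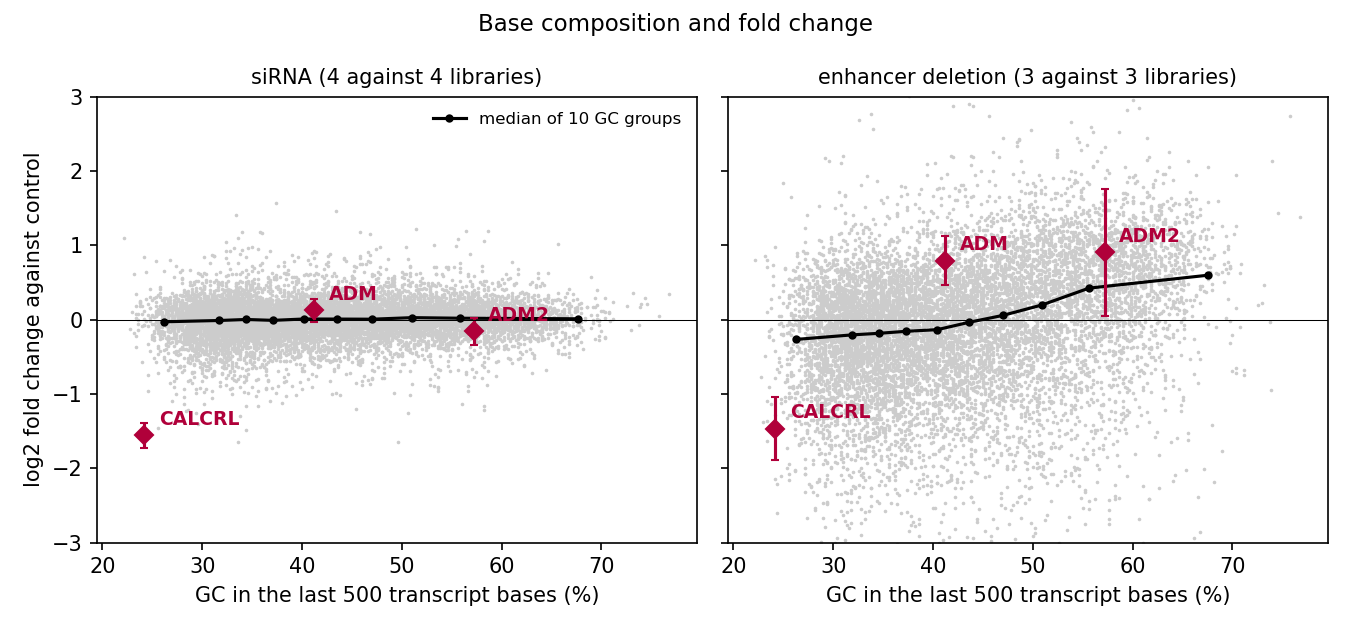
Log2 fold change (vertical axis) against the GC content in percent of the last 500 transcript bases (horizontal axis) for 10746 genes tested in both arms; 138 genes in the deletion panel lie beyond the axis. Grey points are genes, the black line joins the medians of 10 GC groups, and red diamonds with SE bars are the 3 members. The median line is near 0 throughout the siRNA panel and runs from -0.27 to 0.60 in the deletion panel, where CALCRL lies at the left edge.

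The genes most like CALCRL over the 2 comparisons were those with the smallest Euclidean distance to its pair of log2 fold changes, among 5308 genes at or above the median mean count of both tables. They were RAB1A, RAB14, NAA20, COX6A1 and CTNNB1, at distances from 0.64 to 0.83. RAB1A and RAB14 are small GTPases of vesicle traffic, NAA20 is a catalytic subunit of an N-terminal acetyltransferase, COX6A1 a subunit of cytochrome c oxidase, and CTNNB1 encodes beta-catenin. The authors' deposited tables give RAB1A -1.05 (SE 0.16) under siRNA and -1.87 (SE 0.44) after deletion. For CTNNB1 they give -0.83 (SE 0.09) and -1.06 (SE 0.36). The choice of genes near CALCRL largely fixed their calls, which were lower for all 5 under siRNA and for 4 after deletion, NAA20 being the exception (-1.57, SE 0.84, DESeq2 adjusted p-value 0.194). With the GC trend of the last 500 bases removed, RAB14 and CTNNB1 were no longer called after deletion (-0.81 and -0.79, adjusted p-values 0.113 and 0.126). The sites printed above come from 4 of the 5, and no copy of GTAACAA was found in COX6A1. Both these genes and the word were chosen by low siRNA values, so nothing is read from that count.

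Around ADM the plane was crowded, and its 5 nearest genes lay within 0.021 of it: MCAM, an endothelial adhesion molecule, TTF2, SUPT4H1, ARHGEF18 and TCEAL4. None was called under siRNA. After deletion MCAM, SUPT4H1 and TCEAL4 were called higher, with SEs below the 0.33 of ADM. TTF2 and ARHGEF18 were not called there, with SEs of 0.31 and 0.32, also below that of ADM. Over all genes tested in that arm 7.4% were called higher. The choice of genes near ADM largely fixed their calls in both arms, so nothing is read from them. The authors' deposited table gives MCAM 0.80 (SE 0.24, DESeq2 adjusted p-value 0.00998). MCAM was at 0.84 with the GC trend of the last 500 bases removed (adjusted p-value 0.0075) and at 0.59 with that of the whole transcript removed (0.0719). SUPT4H1 and TCEAL4 were called under both of these settings, and TTF2 was too (adjusted p-values 0.0350 and 0.0269).

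Genes that make, cut or bind the ligand gave 1 call over both arms, a share near that of all genes. Among 11 genes of other ligands and of ligand handling, 6 were tested in each arm, and the others, CALCA, CALCB, IAPP, ADM5 and CPE, were not analysed here. Under siRNA 0 of 6 were called in DESeq2's table, with 1, FURIN, at an unadjusted p-value under 0.05, and a median log2 fold change of 0.12 against 0.00 over all genes, where 3.46% were called in either direction. After deletion 1 of 6 was called, against 15.8% of all genes. That gene, ECE1, an endothelin-converting protease, was at 0.84 in the authors' deposited table (SE 0.23, DESeq2 adjusted p-value 0.00653), and at 0.30 without the GC trend (adjusted p-value 0.423). PAM, the enzyme that amidates adrenomedullin to its active form, was at 0.07 (SE 0.19) under siRNA and -0.01 (SE 0.38) after deletion in the authors' deposited tables.

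Among 14 genes for receptor partners, traffic and desensitisation, 11 were tested in each arm, and CALCR, ACKR3 and GRK3 were not analysed here. Under siRNA 1 of 11 was called, where the share over all genes was 3.46%: GRK5, a kinase that desensitises G protein-coupled receptors, was higher at 0.51 (SE 0.14, DESeq2 adjusted p-value 0.0163) by the authors' deposited table. After deletion GRK5 was at -0.21 (SE 0.36), and the difference between the arms was 0.72 (SE 0.39, normal test, adjusted p-value 0.204). Called after deletion were 2 of 11, near the 15.8% of all genes: SLC9A3R1 (1.10, SE 0.38), a scaffold that binds receptor complexes, and RAB11A (-0.58, SE 0.21), a GTPase of recycling endosomes, in the authors' deposited table. Both lost the call without the GC trend (adjusted p-values 0.134 and 0.273). CRCP, a component of the receptor complex, was at 0.05 (SE 0.13) and 0.70 (SE 0.31) in the authors' deposited tables and was called in neither arm. Without the GC trend its deletion value was 0.86 and past the threshold (adjusted p-value 0.0414). RAB5A, of the same list and also uncalled in both arms, passed it after deletion too (0.81, adjusted p-value 0.0482).

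The route from the receptor through the stimulatory G protein to cyclic AMP was represented by 24 genes, of which 23 were tested under siRNA and 22 after deletion. Called lower were 2 of 23 under siRNA and 3 of 22 after deletion, against 2.42% and 8.44% of all genes, and 0 were called higher in either arm. The siRNA calls were PRKACB, a catalytic subunit of protein kinase A, at -0.91 (SE 0.11, DESeq2 adjusted p-value 4.99e-14), and PRKAR2A, a regulatory subunit of the same kinase, at -0.35 (SE 0.11, 0.0327), by the authors' deposited table. PRKACB carries GTAACAA at 2 places in the 3' UTR, and PRKAR2A at 1 in the coding sequence. Genes of this list not called under siRNA carry it too. RAP1B has 3 copies, ADCY7 2 and CREB1 1 in the 3' UTR, and PDE4A 1 in the coding sequence. The word was chosen from these data, so nothing is read from its presence. Without the GC trend of the last 500 bases PRKAR2A was at -0.33 under siRNA (adjusted p-value 0.0548), and without that of the whole transcript at -0.35 (0.0338). After deletion PRKAR2A was at 0.47 (SE 0.22, DESeq2 adjusted p-value 0.127) by the authors' deposited table, and at 0.72 without the GC trend of the last 500 bases (adjusted p-value 0.0162).

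After deletion the called genes of this route were RAP1A, a small GTPase downstream of cyclic AMP (-1.67, SE 0.32), ADCY7, an adenylyl cyclase (-1.68, SE 0.38), and GNAS, the stimulatory G protein alpha subunit (-1.07, SE 0.27), all in the authors' deposited table. They kept the call without the GC trend of the last 500 bases, at -1.57, -1.40 and -0.96. GNAS under siRNA was at -0.08 (SE 0.14), and the arms differed by 0.99 (SE 0.31, normal test, adjusted p-value 0.0180). The list medians, -0.08 under siRNA and -0.05 after deletion, lay near the medians of 0.00 over all genes in both tables.

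CALCRL was next set beside other G protein-coupled receptors. Of 13 other secretin family receptors, none was analysed here. Among 23 other G protein-coupled receptors known from endothelium, 19 were tested under siRNA and 1 was called, where 3.46% of all genes were. That gene, LGR4, was lower at -0.67 (SE 0.21, DESeq2 adjusted p-value 0.0442) by the authors' deposited table. Without the GC trend of the last 500 bases LGR4 was at -0.66 (adjusted p-value 0.0545). After deletion 4 of the 18 reported here were called lower, where 8.44% of all genes were. The list is not complete, so nothing is read from that count.

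The lower receptors after deletion were S1PR1, a sphingosine 1-phosphate receptor (-2.79, SE 0.52), PTGER4, a prostaglandin E2 receptor (-1.98, SE 0.44), ELTD1, the adhesion receptor now named ADGRL4 (-1.13, SE 0.23), and FZD4, a Wnt and norrin receptor (-0.97, SE 0.29), all from the authors' deposited table. Over the last 500 bases S1PR1 and PTGER4 are 29.2% and 29.8% G or C, and ELTD1 and FZD4 40.6% and 42.0%, beside 24.2% for CALCRL. The 4 lower receptors stayed past the threshold without the GC trend of the last 500 bases, where CALCRL did not. In the siRNA arm these 4 receptors lay between -0.06 and 0.12 and none was called.

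ADM is a target of hypoxia-inducible factors, so 16 other such targets were listed, 14 of them tested in each arm. Under siRNA 1 of 14 was called (3.46% of all genes), ANGPTL4, lower at -0.63 (SE 0.12) in the authors' deposited table. After deletion 3 of 14 were called (15.8% of all genes): ENO1, a glycolytic enzyme, was higher (0.93, SE 0.24), and SLC2A1, a glucose transporter, and EGLN1, an oxygen sensor, were lower (-1.36, SE 0.42, and -1.02, SE 0.37) in the authors' deposited table. ENO1 and EGLN1 lost the call without the GC trend of the last 500 bases (0.133 and 0.142), and ENO1 held it without the trend of the whole transcript (0.80, adjusted p-value 0.0118). After deletion 5 of the 14 lay above 0 and 9 below, with a median of -0.36 and a median SE of 0.42.

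The cells' identity was checked with marker lists. Of 15 endothelial markers, 14 were tested under siRNA and 13 after deletion. By the authors' deposited tables, their mean normalised counts ran from 16.7 to 2063 for siRNA and from 9.78 to 2277 for deletion. PECAM1 was not analysed here for either comparison, and SOX18 was not analysed for deletion. Lower beside CALCRL were 2 of 14 under siRNA, SOX17 (-0.70, SE 0.13) and EGFL7 (-0.46, SE 0.11), and 2 of 13 after deletion, CDH5 (-1.44, SE 0.35) and KDR (-1.05, SE 0.31), in the authors' deposited tables, where 2.42% and 8.44% of all genes were called lower. Whether these shifts have a part in the CALCRL result was not tested. The list medians were -0.08 under siRNA and -0.01 after deletion, with 4 of 14 and 6 of 13 markers above 0. CDH5 and KDR kept the call without the GC trend of the last 500 bases. EGFL7 after deletion was at 0.05 (SE 0.22), and at -0.63 without that trend (adjusted p-value 0.0425). Of markers for smooth muscle, fibroblasts, epithelium and leukocytes, 3 of 19 were listed in each table (SMTN, KRT19 and CD68). Of these, 0 were called in DESeq2's tables (0 at an unadjusted p-value under 0.05). The other 16 were not analysed here. The epithelial marker KRT19 had mean counts of 1996 for siRNA and 2430 for deletion, above those of CDH5 (1157 and 942). Smooth muscle SMTN had 432 and 329, and leukocyte CD68 had 41.2 and 12.3, both below CDH5. Mean count alone therefore did not set the endothelial markers apart. Of 4 lymphatic markers, LYVE1 and PDPN were listed in both tables. The authors' deposited tables give LYVE1 -0.54 (SE 0.24) under siRNA and -1.19 (SE 0.46) after deletion, neither called. For PDPN they give 0.09 (SE 0.27) and -0.93 (SE 0.86), also uncalled.

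**Figure D3:**
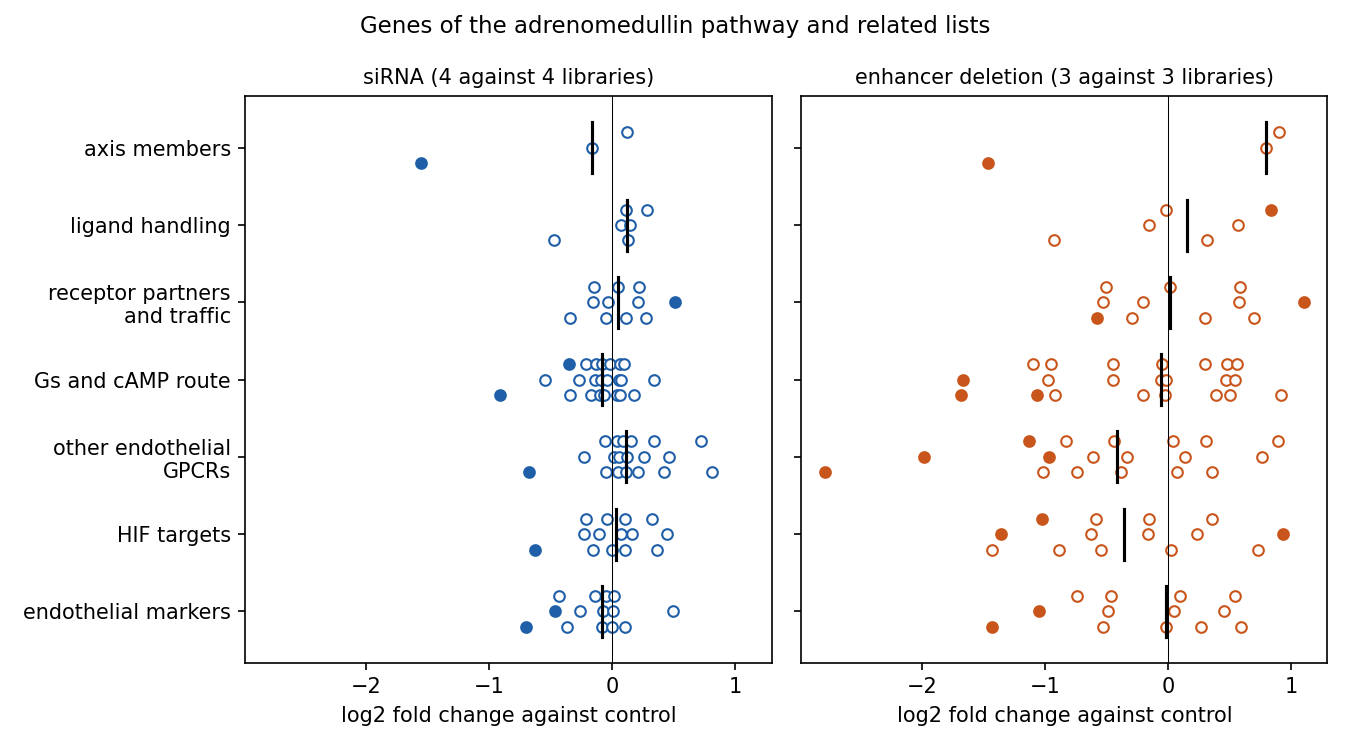
Log2 fold change against control of each gene in 7 lists, under siRNA (left) and after enhancer deletion (right), from the authors' deposited tables. Each circle is a gene, filled where called, and black lines are list medians. In the top row CALCRL is the filled point in both panels, and the values of the other lists spread more widely in the deletion panel, where S1PR1 at -2.79 is the lowest.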

How the data were processed

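RNA was measured in 14 libraries from teloHAEC, in 4 groups taken from the sample titles. By the names of the deposited files, the authors used featureCounts for gene counts and DESeq2 for the group comparisons. The submitters' processing notes name hg19 and edgeR 3.24.3 with no role stated. The aligner, annotation and filters are not given in the sources used here. The deposited tables, 1 per arm, hold mean normalised counts, log2 fold changes with SE, Wald statistics (a score) and p-values, written with decimal commas. Samples' own values were not used, so no count model was fitted here.

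Computed from the deposited values were 95% normal intervals, derived group means, the difference between arms (which share no control libraries; normal test, Benjamini-Hochberg adjustment), list counts and distances between genes. The fold needed for a call is the SE times the smallest called Wald statistic of the table. The implied spread between libraries assumes equal variance in both groups. GC content came from the GENCODE release 29 transcript with the longest 3' UTR, found through the gene ID for 11099 genes under siRNA and 11630 after deletion; its trend was removed by lowess (statsmodels 0.14.6, span 0.3). Positions are on GRCh38, which is not the build named in the submitters' notes; only the gene ID links them. The difference test and the trend removal were tested on simulated data drawn with the deposited SEs taken as true. Such data cannot show whether those SEs are too small.

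The members and the 13 lists were chosen with earlier results of these data known. The genes named were the members, up to 4 called genes of each list in each arm (or, with none called, up to 2 with the highest mean), and the 5 genes nearest to CALCRL and to ADM. Not every gene so named by abundance is described. PAM, CRCP, RAB5A, RAP1B, CREB1, PDE4A and SERTAD4 are described outside this rule. Some genes of the lists are not reported here and were left out of the list counts, for a reason unrelated to their values.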

Additional observations from a re-analysis of the deposited data

Results flagged for a closer look

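Among the pathway and marker lists, 92 genes were tested in both arms, 23 were called in at least 1 arm, and 13 of the 23 differed between the arms by the normal test of the difference, at an adjusted p-value under 0.05 over 10891 genes. Being called in an arm favours a difference; over all 92 genes 14 differed (15.2%), against 13.7% of all genes tested. The gene beyond the 13 is RAB5A (adjusted p-value of the difference 0.0329), called in neither arm. CALCRL was not among the 13. The arms also differ in delivery, time and control, which cannot be told apart from the treatments. Higher under siRNA than after deletion were S1PR1 (adjusted p-value of the difference 8.64e-05), ELTD1 (0.000183), RAP1A (0.000611), PTGER4 (0.0019), CDH5 (0.00305), GNAS (0.018), FZD4 (0.0254) and EGLN1 (0.0326). Lower under siRNA than after deletion were ENO1 (0.00202), PRKAR2A (0.0134), ANGPTL4 (0.0222), ECE1 (0.0327) and PRKACB (0.0377). For S1PR1 the difference was 2.80 on the log2 scale (SE 0.55), and for PRKAR2A it was -0.82 (SE 0.24).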

How the results depend on the processing

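No paired analysis was possible because values of single libraries were not used here; for the same reason leaving out each replicate was not run. Over 6 alternatives, CALCRL under siRNA ranged in adjusted p-value from 1.09e-17 to 0.102, and only the Student t reference (0.102) ended the call. CALCRL after deletion ranged from 0.00696 to 0.975 and was always lower: the call ended with the t reference (0.357), with statistics divided by their robust SD (0.975) and without the GC trend, taken over the final 500 bases (0.0753) or whole transcripts (0.0621). ADM, ADM2 and the 3 differences between arms kept their direction and stayed uncalled under every alternative run, though removing the GC trend moved the CALCRL difference from -0.09 to between -0.48 and -0.44; adjustment over abundant genes alone could not be made for ADM2. The called genes fell from 390 to 5 in the siRNA arm under the t reference (774 at an unadjusted p-value under 0.05). In the deletion arm the t reference and the robust SD left 0 of 1874, with 1646 and 535 at an unadjusted p-value under 0.05. With the GC trend of the last 500 bases removed, the split of deletion calls was 617 higher and 823 lower, against 875 and 999. Adjustment over abundant genes alone gave 868 higher and 633 lower. The GC alternatives for genes other than the members were chosen after seeing the data. The SE, not a known depth, limits each value.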

Other observations

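The word GTAACAA was chosen from these data, so the counts are a description. CALCRL carries GTAACAA in its coding sequence and not in its 3' UTR, as did 406 of the coding genes tested in the siRNA arm (3.81%). Of these 406, the authors' deposited table has 28 called lower (6.90%) and 6 higher (1.48%), CALCRL included. Over all coding genes tested in that arm, 2.5% were called lower and 1.08% higher. The median log2 fold change of the 406 was -0.12. SERTAD4 was the only one of them with a lower log2 fold change than CALCRL (-1.64, SE 0.49); it was chosen after its value was seen. In the deletion arm 31 of 404 such genes were called lower (7.67%), against 8.96% of all coding genes tested, with a median of -0.01. Whether any of these genes is a direct target of the siRNA was not tested.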
